A study of Mus musculus with 12 samples.

Results

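Expression of 10 genes of the Kruppel-like factor family after exposure to brain-derived extracellular vesicles was examined in the mouse neuroblastoma line N2a. The genes were Klf2, Klf3, Klf4, Klf6, Klf7, Klf9, Klf10, Klf11, Klf13 and Klf16, chosen by name, and each had 1 row among the 24318 gene rows of the deposited tables. The 3 groups of 4 libraries each were labelled SE-BDEV, CON-BDEV and Vehicle. BDEV stands for brain-derived extracellular vesicles, and the study's title ties SE to status epilepticus, a prolonged seizure. The labels do not spell out CON. The sources used here do not give the vesicle dose, the exposure time or the animals that gave the vesicles. They do not say if each library was a culture of its own. The p-values therefore measure the spread between libraries, which may be technical. All libraries came from 1 cell line and from polyA RNA. The libraries were estimated to hold 13000000 to 15600000 fragments in the SE-BDEV group, 12800000 to 14500000 in the CON-BDEV group and 15100000 to 16500000 in the Vehicle group, so the vesicle groups were mostly shallower; its part in the results was not tested. On the first principal component of all genes the Vehicle libraries, at -7.83 to -4.07, lay below the vesicle libraries, at -3.22 to 15. SE-BDEV 3 and SE-BDEV 2 stood farthest out on the first and second components, which held 20.8% and 19.6% of the variance. Results are therefore also given with each library left out where that changed a call.

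Kruppel-like factors are transcription factors that bind GC-rich and CACCC-containing DNA through a block of zinc fingers at the end of the protein. They are grouped by the partners of the rest of the protein. Klf3 recruits the corepressor CtBP, Klf2, Klf4, Klf6 and Klf7 act mostly as activators that recruit acetyltransferases, and Klf9, Klf10, Klf11, Klf13 and Klf16 recruit the corepressor Sin3. In neurons the family is known for its part in neurite growth: in rodents Klf4 and Klf9 limit the growth of axons, whereas Klf6 and Klf7 promote it. Several members, Klf2, Klf4, Klf6 and Klf10 among them, are also induced quickly by serum, growth factors or stress.

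The sequences just upstream of 3 activators are shown because Klf6 was the member that passed the test, Klf4 was the member nearest to it on the higher side, and Klf7 is the relative of Klf6 that had the highest level. Each run is the 250 bases before the RefSeq start of the gene on GRCm38.p6, 5′ to 3′ on the strand of the gene. Capitals mark GGGCGG, the GC box, and CACGTG, an E-box, found on either strand.
Klf6, chr13:5861239-5861488, plus strand: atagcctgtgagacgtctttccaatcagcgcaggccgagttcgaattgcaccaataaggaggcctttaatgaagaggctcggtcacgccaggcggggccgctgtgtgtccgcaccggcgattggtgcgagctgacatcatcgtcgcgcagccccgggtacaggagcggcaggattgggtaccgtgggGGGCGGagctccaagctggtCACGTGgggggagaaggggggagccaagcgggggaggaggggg
Klf4, chr4:55532476-55532725, minus strand: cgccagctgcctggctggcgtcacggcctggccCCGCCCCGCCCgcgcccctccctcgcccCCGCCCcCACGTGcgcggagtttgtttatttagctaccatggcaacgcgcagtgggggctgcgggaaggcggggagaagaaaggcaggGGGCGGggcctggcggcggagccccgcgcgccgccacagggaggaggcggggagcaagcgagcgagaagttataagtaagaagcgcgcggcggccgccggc
Klf7, chr1:64121390-64121639, minus strand: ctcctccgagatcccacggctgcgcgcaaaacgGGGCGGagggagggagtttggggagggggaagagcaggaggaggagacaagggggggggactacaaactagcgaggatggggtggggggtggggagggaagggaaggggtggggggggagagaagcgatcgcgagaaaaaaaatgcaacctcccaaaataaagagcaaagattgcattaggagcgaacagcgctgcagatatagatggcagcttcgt
The Klf6 window held a GC box whose first base lies 63 bases before the start and an E-box 43 bases before it. The Klf4 window held 4 GC boxes, of which the pair farthest upstream overlap, and an E-box 182 bases before the start. The Klf7 window held 1 GC box, 217 bases before the start, and no E-box. RefSeq windows were at hand for 8 of the 10 genes, all but Klf10 and Klf16. GGGCGG was in 7 of these 8 windows and in 32.7% of all 32851 windows of the same length. CACGTG was in 3 of 8, those of Klf4, Klf6 and Klf11, and in 6.02% of all windows, and CACCC was in 5 of 8 and in 52% of all. TGACGTCA, the full cyclic AMP response element, was in none of the 8 and in 1.55% of all. The letters describe the windows only.

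Klf6 was the member of the family that fell in cells given vesicles, whichever group the vesicles came from. Its level, in FPKM, fragments scaled to transcript length and to library size, was 14% lower in SE-BDEV cells and 11.4% lower in CON-BDEV cells than in Vehicle cells. None of the 8 tested genes rose past the threshold, an adjusted p under 0.05 over all genes tested, and none passed it between SE-BDEV and CON-BDEV cells. The call of Klf6 in each vesicle group alone held in 2 of 8 fits that each left out 1 library. With both groups together against Vehicle it held in 12 of 12 such fits. In the authors' own test Klf6 was not significant in either vesicle group. Of the other members, Klf4 lay nearest to this threshold in each comparison with Vehicle, on the higher side. Klf2 and Klf13 were too low to be tested. In each comparison with Vehicle 1 of the 8 tested members fell and 0 rose. Over all genes tested 0.919% were called in SE-BDEV over Vehicle, 0.292% as rises and 0.628% as falls. In CON-BDEV over Vehicle 2.84% were called, 1.02% as rises and 1.82% as falls, and with both vesicle groups over Vehicle 3.37%, 1.53% as rises and 1.84% as falls. These comparisons share their 4 Vehicle libraries.

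**Figure D1:**
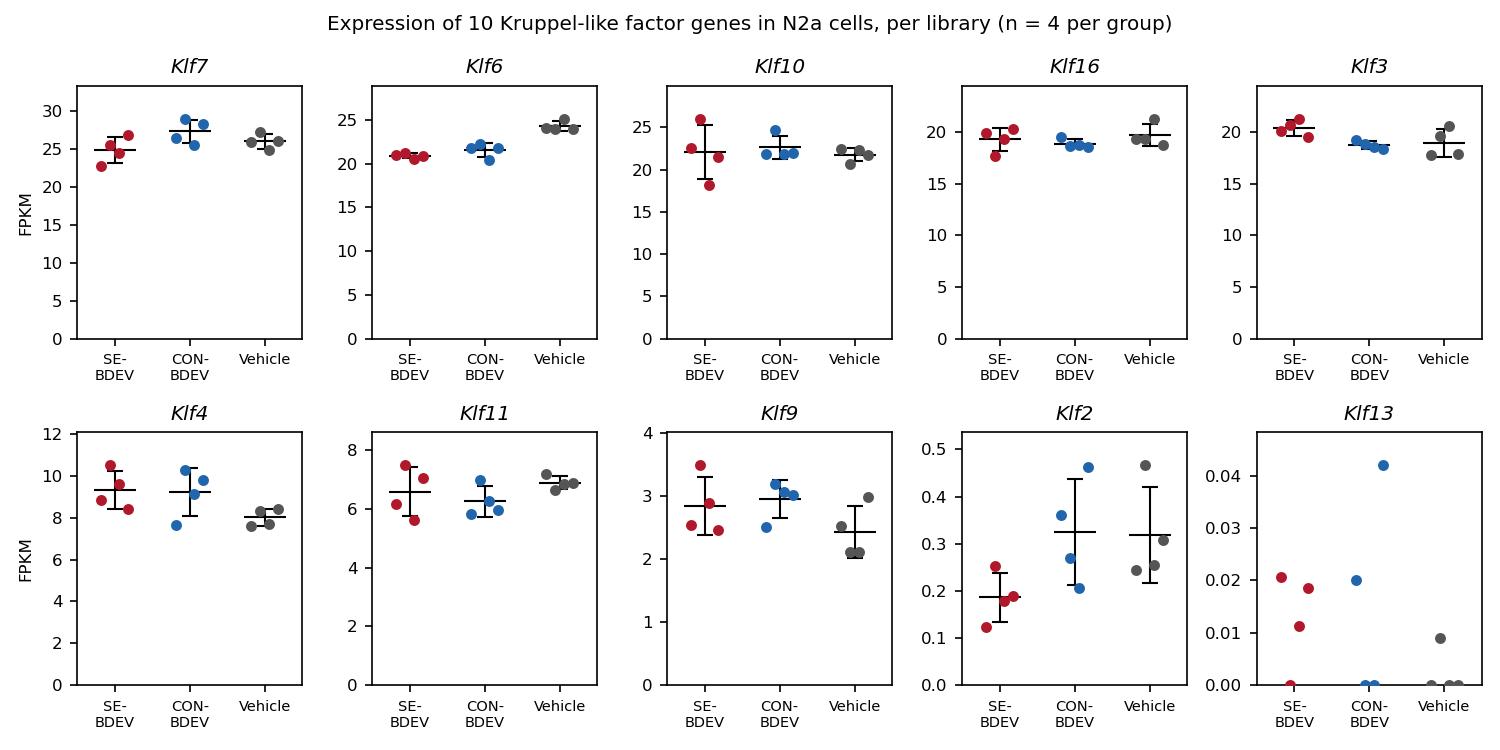
Level of each gene in FPKM (vertical axis, its own scale in each panel, starting at 0) in every library of the SE-BDEV, CON-BDEV and Vehicle groups; points are libraries, and the bars in all panels but that of Klf13 are the group mean and its SD (n = 4). All 8 BDEV libraries lie below the 4 Vehicle libraries for Klf6, whose group means are 20.9, 21.5 and 24.3 FPKM, while the groups overlap for most other genes.

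The members spanned a wide range of levels, here compared per transcript length in FPKM. In Vehicle cells the order was Klf7, Klf6, Klf10, Klf16, Klf3, Klf4, Klf11, Klf9, Klf2 and Klf13. Klf7 averaged 26.0 FPKM there, above 84.6% of all gene rows, while Klf9 averaged 2.44 FPKM, above 57.8%. The ranges of Klf7 and Klf6 overlapped in Vehicle cells, as did those of Klf10 and Klf16 and those of Klf16 and Klf3; the other neighbours in the order did not overlap. In both vesicle groups Klf10 stood above Klf6 in the order of means, with overlapping ranges. The tested members other than Klf9 were all above 5 FPKM in every library.

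Klf6, an activator named as a tumour suppressor in human cancers and needed for axon regrowth in the zebrafish retina, lies on chromosome 13 at 5860734 to 5869639 (mm9, the build of the deposited tables). It stood at 21.0, 21.2, 20.5 and 20.9 FPKM in the SE-BDEV libraries. The CON-BDEV libraries had 21.8, 22.2, 20.4 and 21.8 FPKM, and the Vehicle libraries 24.1, 24.0, 25.1 and 24.0 FPKM. Every vesicle library was below every Vehicle library. The 2 vesicle groups overlapped through the third CON-BDEV library, the lowest of its group. The log2 fold change on the log2(FPKM + 1) scale was -0.21 in SE-BDEV over Vehicle (SE 0.0351, 95% interval -0.29 to -0.13, adjusted p = 0.0224 by limma with Benjamini-Hochberg adjustment). It was -0.17 in CON-BDEV over Vehicle (SE 0.0358, 95% interval -0.25 to -0.09, limma adjusted p = 0.0340). Taking both vesicle groups together against Vehicle, Klf6 averaged -0.19 (SE 0.0303, 95% interval -0.25 to -0.12, limma adjusted p = 0.00464) and was lower in 8 of 8 vesicle libraries. Between SE-BDEV and CON-BDEV cells the log2 difference of -0.04 had a 95% interval of -0.12 to 0.03, and the limma adjusted p was 1.00.

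The change of Klf6 was small and rested on a narrow spread. Its SD on the log2(FPKM + 1) scale was 0.0201 among the SE-BDEV libraries, a value above those of only 1.6% of the genes tested, 0.0497 among the CON-BDEV libraries and 0.0313 among the Vehicle libraries. In SE-BDEV over Vehicle 55 genes had a smaller p than Klf6, and in CON-BDEV over Vehicle 234 genes did. The call in each single comparison depended on the settings and on which libraries were in the fit. With no filter on low values the limma adjusted p was 0.0556 in SE-BDEV over Vehicle and 0.0551 in CON-BDEV over Vehicle. With no mean-variance trend it was 0.0608 in CON-BDEV over Vehicle. The call was also lost with the replicate number added to the fit. The limma adjusted p at that loss of the call was 0.104 in SE-BDEV and 0.116 in CON-BDEV over Vehicle. In SE-BDEV over Vehicle the call was lost without SE-BDEV 1, SE-BDEV 3 or any 1 of the 4 Vehicle libraries. Over the 8 fits that each left out 1 library the limma adjusted p lay between 0.0148 and 0.101. In CON-BDEV over Vehicle the call was lost without CON-BDEV 3, CON-BDEV 4 or any 1 of the Vehicle libraries, with limma adjusted p between 0.0303 and 0.11. Over these fits the log2 fold change stayed between -0.22 and -0.19 in SE-BDEV and between -0.18 and -0.14 in CON-BDEV. With both vesicle groups set against Vehicle the call held in 12 of 12 such fits, with limma adjusted p between 0.00398 and 0.0302. In the authors' deposited table, made with Cuffdiff, Klf6 was not significant: q was 0.155 in SE-BDEV over Vehicle, with a log2 fold change of -0.22, and 0.199 in CON-BDEV over Vehicle, with -0.17. The authors' deposited table called 140 of 11928 genes in SE-BDEV, 1.17%, and 215 of 11912 in CON-BDEV, 1.8%, and 0 of the 8 members it tested in either.

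**Figure D2:**
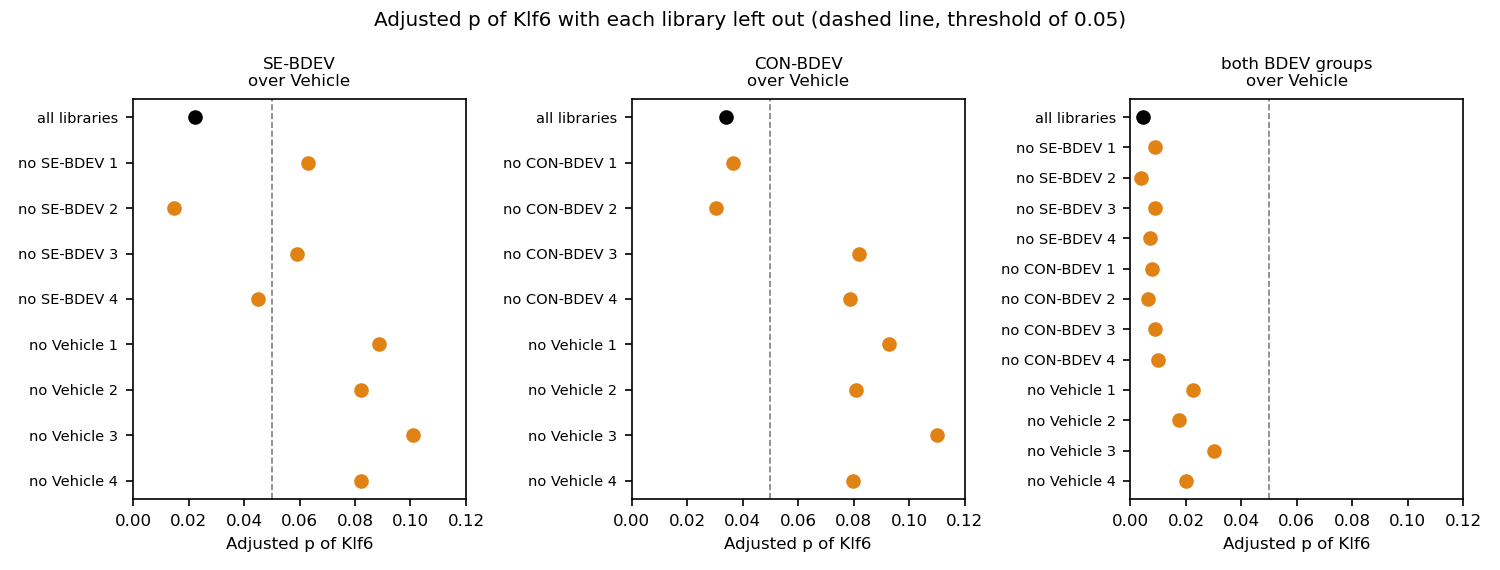
Adjusted p of Klf6 from limma (horizontal axis) in fits that each leave out 1 library (rows), for SE-BDEV over Vehicle, CON-BDEV over Vehicle and both vesicle groups over Vehicle; the dashed line is the threshold of 0.05. The values run up to 0.101 and 0.11 in the single comparisons and stay at or below 0.0302 with both vesicle groups together.

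Klf4, a pluripotency factor that limits axon growth in rodent retinal ganglion cells, lies on chromosome 4 at 55540008 to 55545347 (mm9). The SE-BDEV libraries had 8.83, 10.5, 9.60 and 8.44 FPKM, the CON-BDEV libraries 7.65, 10.3, 9.12 and 9.78 FPKM, and the Vehicle libraries 7.61, 8.33, 7.71 and 8.41 FPKM. All SE-BDEV libraries were above all Vehicle libraries, the lowest by a small margin, and 7 of the 8 vesicle libraries were. CON-BDEV 1 fell among the Vehicle libraries. The log2 fold change was 0.20 in SE-BDEV over Vehicle (95% interval 0.05 to 0.34, limma adjusted p = 0.207) and 0.18 in CON-BDEV over Vehicle (95% interval 0.00 to 0.35, limma adjusted p = 0.249). Without CON-BDEV 1 the value in CON-BDEV over Vehicle was 0.25 and passed the threshold (limma adjusted p = 0.0351). In the authors' deposited table q was 0.312 in SE-BDEV and 0.223 in CON-BDEV.

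Klf4 and Klf6 were the 2 members whose SE-BDEV and Vehicle libraries did not overlap, and Klf6 was the 1 such member in CON-BDEV against Vehicle. Over all genes tested 10.2% did not overlap in SE-BDEV against Vehicle, 5.77% on the higher side and 4.39% on the lower. In CON-BDEV against Vehicle 11.9% did not, 5.68% higher and 6.23% lower. With the 8 vesicle libraries against Vehicle Klf6 was the 1 such member, and 5.19% of all genes did not overlap, 2.52% higher and 2.67% lower. At an unadjusted p under 0.05 the same pair was below the limit in both comparisons, 2 of 8 members, where 14.8% of all genes were in SE-BDEV and 19.1% in CON-BDEV.

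Klf7, which promotes axon growth in mouse sensory neurons and is the closest relative of Klf6, lies on chromosome 1 at 64082246 to 64167963 (mm9). It had 22.7, 25.5, 24.4 and 26.8 FPKM in SE-BDEV libraries, 26.4, 28.9, 25.5 and 28.2 FPKM in CON-BDEV libraries and 25.9, 27.2, 24.8 and 26.0 FPKM in Vehicle libraries. All 3 groups overlapped. Its log2 fold change was -0.07 in SE-BDEV over Vehicle (limma adjusted p = 0.602) and 0.06 in CON-BDEV over Vehicle (limma adjusted p = 0.474). Between SE-BDEV and CON-BDEV it was -0.13 (95% interval -0.24 to -0.02, limma adjusted p = 1.00).

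Klf2, an activator best known for keeping endothelium and T cells quiescent, was near the floor of these libraries. It lies on chromosome 8 at 74842960 to 74845553 (mm9). It had 0.124, 0.253, 0.178 and 0.188 FPKM in SE-BDEV libraries, 0.361, 0.270, 0.206 and 0.462 FPKM in CON-BDEV libraries, and 0.244, 0.466, 0.255 and 0.307 FPKM in Vehicle libraries. From the estimated depth and a transcript of 1847 bases these levels correspond to 3 to 6 fragments per SE-BDEV library, 5 to 12 per CON-BDEV library and 7 to 14 per Vehicle library. SE-BDEV libraries were the lowest on average and overlapped the other groups through SE-BDEV 2. With no filter on low values the log2 difference on the log2(FPKM + 1) scale, which compresses such low levels, was -0.15 in SE-BDEV over Vehicle (limma adjusted p = 0.350) and 0.01 in CON-BDEV over Vehicle (limma adjusted p = 0.979).

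Klf3, the CtBP-recruiting repressor, lies on chromosome 5 at 65194761 to 65221368 (mm9). It had 20.1, 20.7, 21.3 and 19.5 FPKM in SE-BDEV libraries, 19.3, 18.9, 18.6 and 18.4 FPKM in CON-BDEV libraries, and 17.8, 19.6, 20.6 and 17.9 FPKM in Vehicle libraries. All 4 SE-BDEV libraries were above all 4 CON-BDEV libraries, while the Vehicle libraries overlapped both groups. It was the 1 member of 8 whose vesicle groups did not overlap, where 1.39% of all genes tested did not, 0.76% with SE-BDEV on the higher side. The log2 difference, SE-BDEV over CON-BDEV, was 0.11 (95% interval 0.01 to 0.21, limma adjusted p = 1.00). Klf3 and Klf7 were the 2 members with an unadjusted p under 0.05 between the vesicle groups, where 2.62% of all genes were. Limma called 0 of 11312 genes in that comparison and 296 had an unadjusted p under 0.05. Neither member can be said to differ with the source of the vesicles, nor to be alike in both: their intervals reach differences as large as that of Klf6 against Vehicle.

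**Figure D3:**
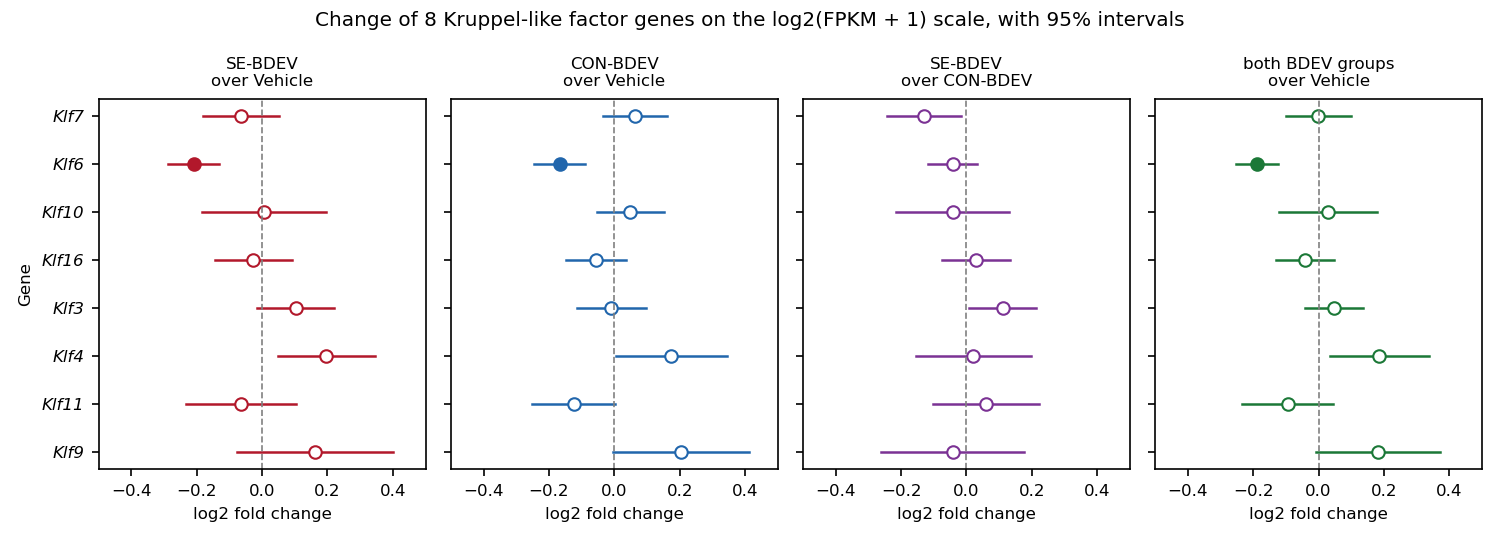
log2 fold change on the log2(FPKM + 1) scale (horizontal axis) of the 8 tested genes (rows), in 4 comparisons; points are limma estimates, bars their 95% intervals, and filled points mark an adjusted p under 0.05. Klf6 is the filled point in the 3 comparisons with Vehicle, at -0.21, -0.17 and -0.19, and no gene is filled in SE-BDEV over CON-BDEV.

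Klf9, a Sin3-recruiting repressor induced by thyroid hormone and glucocorticoids, lies on chromosome 19 at 23215715 to 23241401 (mm9). It had 2.54, 3.49, 2.89 and 2.47 FPKM in SE-BDEV libraries, 2.51, 3.20, 3.07 and 3.02 FPKM in CON-BDEV libraries, and 2.52, 2.12, 2.12 and 2.99 FPKM in Vehicle libraries. All 8 vesicle libraries were above the Vehicle mean, and the groups overlapped through Vehicle 1 and Vehicle 4. The log2 fold change was 0.16 in SE-BDEV over Vehicle (limma adjusted p = 0.514) and 0.20 in CON-BDEV over Vehicle (limma adjusted p = 0.269). In the authors' deposited table, made with Cuffdiff, q was 0.637 in SE-BDEV and 0.199 in CON-BDEV. The q of 0.199 was also that of Klf6 in CON-BDEV, and was below the 0.223 of Klf4.

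Klf10 and Klf11 are the TGF-beta-inducible early genes, repressors that also recruit Sin3. Klf10, on chromosome 15 at 38221218 to 38230466 (mm9), had 22.5, 26.0, 18.2 and 21.5 FPKM in SE-BDEV libraries, 21.9, 24.7, 21.9 and 22.0 FPKM in CON-BDEV libraries, and 22.4, 20.7, 22.3 and 21.7 FPKM in Vehicle libraries. The SE-BDEV libraries included both the highest and the lowest value, and the Vehicle libraries lay between them. The log2 fold change was 0.01 in SE-BDEV over Vehicle (95% interval -0.18 to 0.20, limma adjusted p = 0.982) and 0.05 in CON-BDEV over Vehicle (limma adjusted p = 0.609). Klf10 had an SD of 0.204 on the log2(FPKM + 1) scale in SE-BDEV cells, above 90.9% of the genes tested, and 0.0514 in Vehicle cells. Klf11, on chromosome 12 at 25336235 to 25347647 (mm9), had 6.16, 7.48, 5.63 and 7.04 FPKM in SE-BDEV libraries, 5.81, 6.99, 6.26 and 5.96 FPKM in CON-BDEV libraries, and 7.19, 6.65, 6.85 and 6.89 FPKM in Vehicle libraries. The groups overlapped, with the Vehicle libraries the most alike. Its log2 fold change was -0.06 in SE-BDEV over Vehicle (limma adjusted p = 0.737) and -0.12 in CON-BDEV over Vehicle (limma adjusted p = 0.270).

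Klf16, a repressor that binds GC-rich promoters, lies on chromosome 10 at 80029865 to 80040041 (mm9). It had 19.9, 17.7, 19.4 and 20.3 FPKM in SE-BDEV libraries, 19.5, 18.7, 18.8 and 18.6 FPKM in CON-BDEV libraries, and 19.4, 19.4, 21.3 and 18.8 FPKM in Vehicle libraries. The 3 groups overlapped, with log2 fold changes of -0.03 in SE-BDEV over Vehicle (limma adjusted p = 0.856) and -0.06 in CON-BDEV over Vehicle (limma adjusted p = 0.494). Klf13, which acts in lymphocytes and the heart, lies on chromosome 7 at 71031236 to 71083801 (mm9) and was listed at or near 0 throughout. The SE-BDEV libraries were listed at 0.0206, 0, 0.0112 and 0.0186 FPKM, the CON-BDEV libraries at 0.0201, 0, 0 and 0.0420 FPKM, and the Vehicle libraries at 0, 0.00898, 0 and 0 FPKM. No library had more than 4 estimated fragments on its transcript of 6396 bases, so a difference was not detectable at this depth.

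The same library was often the highest of its group. SE-BDEV 2 was the highest of its group for 5 of the 8 tested members, Klf4, Klf6, Klf9, Klf10 and Klf11, and it was the highest for 28.9% of all genes tested. It was the lowest for 1 member, Klf16, and for 35.8% of all genes. CON-BDEV 2 was the highest of its group for 6 of 8, the same genes and Klf7, and it was the highest for 27.4% of all genes. It was the lowest for 0 members and for 30.5% of all genes. Over all genes SE-BDEV 2 had the largest share of its group on both sides. CON-BDEV 2 had it on the low side only, since CON-BDEV 1 was the highest for 30.9% of all genes. SE-BDEV 2 and CON-BDEV 2 also had the highest mean of 14 immediate early genes in their groups, on the log2(FPKM + 1) scale. SE-BDEV 2 had 4.07 and the other SE-BDEV libraries 3.65 to 3.82. CON-BDEV 2 had 4.04 and the other CON-BDEV libraries 3.69 to 3.94. The Vehicle libraries had up to 3.92. The part of these libraries in the members' values was not tested beyond leaving each one out.

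**Figure D4:**
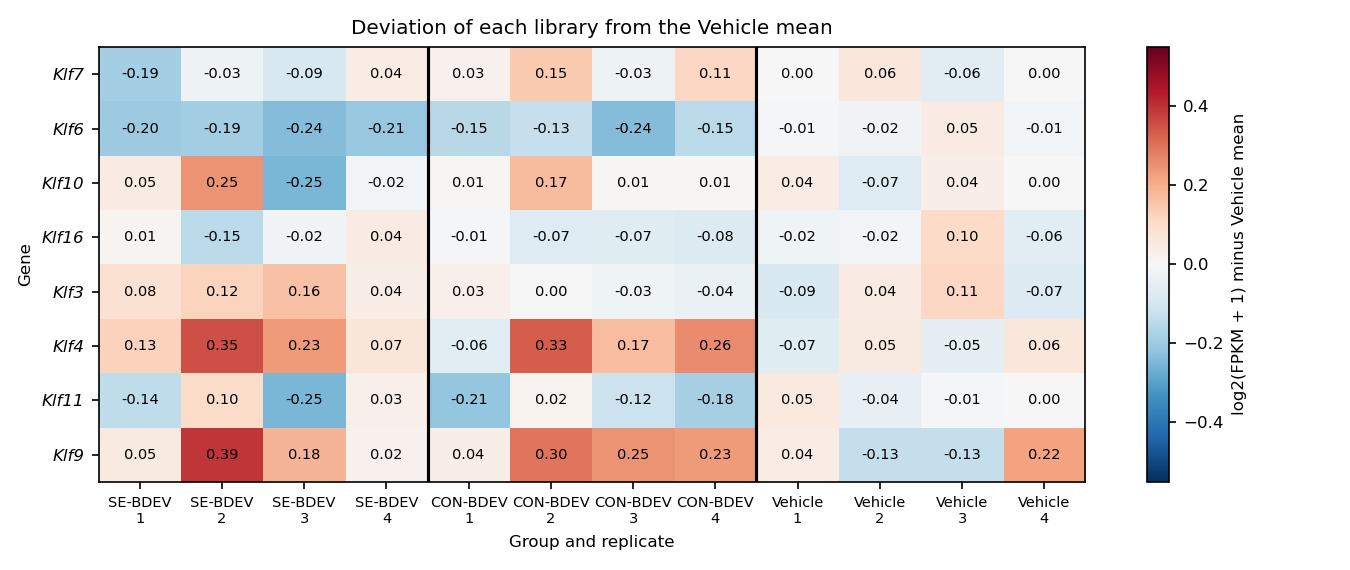
Deviation of each library (columns) from the Vehicle mean on the log2(FPKM + 1) scale for the 8 tested genes (rows), with colour and number giving the deviation. Klf6 is below the Vehicle mean in all 8 vesicle libraries and Klf9 above it in all 8, while Klf10 and Klf11 take both signs within the SE-BDEV group.

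The median log2 fold change of the 8 tested members was -0.01 in SE-BDEV over Vehicle, beside 0.01 over all genes tested, and 0.02 in CON-BDEV over Vehicle, beside 0.004. In each comparison 4 members were higher and 4 lower. The median size of the change was 0.08 for the members and 0.06 for all genes in SE-BDEV over Vehicle, and 0.09 and 0.06 in CON-BDEV over Vehicle. Of the 7 other Klf genes 3 were tested and 0 called. Klf5, an activator of proliferating epithelia, averaged 23.2 ± 2.73 FPKM in SE-BDEV cells, 24.0 ± 1.60 in CON-BDEV cells and 23.8 ± 0.762 in Vehicle cells (SD, n = 4 each). Klf8 and Klf12, the CtBP-recruiting relatives of Klf3, averaged 2.14 and 4.27 FPKM in SE-BDEV cells, 2.20 and 4.12 in CON-BDEV cells and 2.15 and 3.96 in Vehicle cells. Klf1, Klf14 and Klf15 were below 1 FPKM and Klf17 was listed at 0. Of the 9 Sp genes, whose products bind the same GC boxes, 6 were tested and 0 called. Over all genes tested 0.919% were called in SE-BDEV over Vehicle and 2.84% in CON-BDEV over Vehicle. Counts of 0 among so few Klf and Sp relatives are near those shares and are no result about them. Sp1 averaged 28.6 FPKM in SE-BDEV cells, 27.3 in CON-BDEV cells and 27.7 in Vehicle cells, and Sp3 averaged 34.1, 33.3 and 33.8 FPKM in the same order. Sp2, Sp4, Sp6 and Sp9 averaged 12.8, 2.66, 15.5 and 7.17 FPKM in SE-BDEV cells, 12.5, 2.66, 15.8 and 7.52 in CON-BDEV cells and 12.7, 2.61, 16.7 and 6.72 in Vehicle cells.

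Genes that act with the family were counted in the same way. None was called in SE-BDEV over Vehicle or CON-BDEV over Vehicle among 12 tested cofactors such as CtBP and Sin3, 7 ubiquitin ligases that act on Klf proteins, 6 genes of the ERK5 and MEF2 axis upstream of Klf2 and Klf4, 11 genes of the TGF-beta and SMAD axis, 6 of the glucocorticoid axis or 14 immediate early genes. Over all genes tested 0.919% were called in SE-BDEV over Vehicle and 2.84% in CON-BDEV over Vehicle, so counts of 0 in lists of this size are near the background and are no result about the lists. The median log2 fold changes of these 6 lists lay between -0.04 and 0.04 in SE-BDEV over Vehicle and between -0.03 and 0.07 in CON-BDEV over Vehicle. Of 9 tested genes reported as Klf targets, 1 was called. Cdkn1a, the cell cycle inhibitor p21 and a target of Klf4 and Klf6, averaged 25.5 ± 5.04 FPKM in SE-BDEV cells, 25.2 ± 3.00 in CON-BDEV cells and 33.6 ± 2.31 in Vehicle cells (SD, n = 4 each). It fell in CON-BDEV over Vehicle (log2 fold change -0.41, limma adjusted p = 0.0201), a call lost without CON-BDEV 4, Vehicle 1, Vehicle 3 or Vehicle 4. In SE-BDEV over Vehicle its value was -0.41 (limma adjusted p = 0.163), and with both vesicle groups over Vehicle -0.41 (limma adjusted p = 0.0492), a call lost without SE-BDEV 1, CON-BDEV 1, CON-BDEV 3, CON-BDEV 4 or any 1 Vehicle library. The median of the 9 target genes was -0.02 in SE-BDEV over Vehicle and -0.01 in CON-BDEV over Vehicle.

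The genes whose levels over the 12 libraries were most like that of Klf6, out of 10791 searched, were Slc20a1, Mpnd and Nfu1. Slc20a1, a phosphate transporter, had a Pearson r of 0.951 on the log2(FPKM + 1) scale and averaged 39.0 ± 0.584 FPKM in SE-BDEV cells, 40.1 ± 1.01 in CON-BDEV cells and 44.1 ± 1.06 in Vehicle cells. Mpnd, a protein of the MPN domain family, had r = 0.921 with 31.8, 32.7 and 38.7 FPKM in the same groups. Nfu1, an iron-sulphur cluster scaffold of mitochondria, had r = 0.914 with 71.5, 70.8 and 82.9 FPKM. These are descriptions over 12 libraries that share the same 3 groups and depths.

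The 8 markers of noradrenergic neuroblasts reported here, the cell type of this line, each had a mean of at least 1 FPKM. Their summed level was 425 to 452 FPKM in SE-BDEV cells, 434 to 464 in CON-BDEV cells and 377 to 401 in Vehicle libraries, so it moved with vesicle exposure, as Klf6 did in the other direction. Of the 8 tested, 1 rose in SE-BDEV over Vehicle, Dbh, and 4 in CON-BDEV over Vehicle, led by Phox2a, Dbh and Gata3; the call of Dbh in SE-BDEV was lost without any 1 Vehicle library. Their part in the change of Klf6 was not tested. In bulk RNA a change in the share of cells and a change in RNA per cell cannot be told apart. Markers of other brain cell types were low: 0 of 6 astrocyte markers, 1 of 8 microglial, 1 of 7 endothelial, 1 of 6 forebrain neuron and 2 of 6 oligodendrocyte markers reached 1 FPKM. The summed levels were 0.744 to 1.02, 0.640 to 0.855 and 0.990 to 1.14 FPKM for astrocyte markers in SE-BDEV, CON-BDEV and Vehicle libraries, and 5.88 to 6.51, 5.82 to 6.84 and 5.86 to 6.07 FPKM for oligodendrocyte markers. C1qb, Cldn5 and Neurod6 were listed at 0.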

How the data were processed

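PolyA RNA of N2a cells was sequenced in 12 libraries, 4 per group. The FPKM values were deposited by the authors as 2 tables, each holding 1 vesicle group and Vehicle; TopHat2, Cuffdiff and mm9 are named in the submitters' processing notes, without versions. The authors' deposited comparison tables give log2 fold changes, p-values, q-values and a test score, which are quoted only as the authors' values. The Vehicle columns of the tables differed by a scale factor off 1 by at most 0.0335%, and their mean was used where all 12 libraries entered a fit.

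The members and gene lists were chosen with earlier results of these data known. All 10 members are named, with Klf and Sp relatives of at least 1 FPKM, at most 3 called genes per list and direction, and the 3 genes most like each called member. FPKM values were tested with limma 3.58.1 (R 4.3.3) on log2(FPKM + 1), with a mean-variance trend, two-sided, over genes averaging 1 FPKM or more, adjusted by Benjamini-Hochberg, at a threshold of 0.05. Each vesicle group was fitted with its own Vehicle columns, and SE-BDEV over CON-BDEV and both groups over Vehicle on all 12 libraries. A fold change on this scale understates that of low genes. Depth was estimated from FPKM values of at most 0.05 in genes with 1 annotated transcript of 1500 to 8000 bases, taken as single fragments, and is no read count. Of the rows 100 joined several gene names and carry the first. Promoter sequences are RefSeq's on GRCm38.p6, and mm9 coordinates are those of the deposited tables; neither was converted. Alternatives were other pseudocounts (0.1, 0.5), other filters, rescaling, no trend, a replicate block, other sets of libraries, leaving out each library and the authors' Cuffdiff.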

Additional observations from a re-analysis of the deposited data

Results flagged for a closer look

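Among 30 groups of 4 libraries, 1 for each member and group, 3 held a library that stood far from the rest. Chance gives about 1 in 20, a rate that does not hold for values at or near 0, such as those of Klf13. Klf6 in Vehicle 3 was 25.1 FPKM, above 24.0 to 24.1 in the other Vehicle libraries. Without it the limma adjusted p of Klf6 was 0.101 in SE-BDEV over Vehicle and 0.11 in CON-BDEV over Vehicle. Klf10 in CON-BDEV 2 was 24.7 FPKM, above 21.9 to 22.0 in the others. Klf13 in Vehicle 2 was 0.00898 FPKM where the other Vehicle libraries were listed at 0, a level of at most 1 estimated fragment. Beside libraries at 0 any value above 0 would have been flagged.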

How the results depend on the processing

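With both vesicle groups over Vehicle, 1 member (Klf6) passed under each alternative run, and between SE-BDEV and CON-BDEV 0 did. In SE-BDEV over Vehicle the count of members called was 0 with no filter on low values (limma adjusted p of Klf6 0.0556), with the replicate block (0.104) and in the authors' Cuffdiff (q 0.155), and 0 to 1 over fits leaving out a library. In CON-BDEV over Vehicle it was 0 with no filter (0.0551), no mean-variance trend (0.0608), the replicate block (0.116) and the authors' Cuffdiff (q 0.199), and 0 to 2 over fits leaving out a library, with Klf4 as the second call without CON-BDEV 1. With no filter 17444 genes were tested in SE-BDEV over Vehicle, against 11311. In CON-BDEV over Vehicle 17406 were tested, against 11320. The cause of the lost calls was not tested.

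The labels do not say if replicate numbers pair the libraries. Deviations of same-numbered SE-BDEV and CON-BDEV libraries correlated between -0.123 and 0.298. Of the 4 SE-BDEV libraries, 2 correlated best with the CON-BDEV library of their own number. With Vehicle libraries 0 of 4 did so in either vesicle group. So few libraries cannot settle whether they were paired. The log2 fold change of Klf6 with the block was -0.21 in SE-BDEV and -0.17 in CON-BDEV over Vehicle.

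Signs turned for members that passed no test: Klf10 in SE-BDEV over Vehicle was -0.001 after rescaling and -0.073 to 0.092 over fits leaving out a library. Such fits gave Klf16 -0.05 to 0.013 in SE-BDEV over Vehicle, Klf3 -0.037 to 0.029 in CON-BDEV over Vehicle, and, in SE-BDEV over CON-BDEV, Klf10 -0.122 to 0.043, Klf4 -0.057 to 0.073 and Klf9 -0.119 to 0.004. With both groups over Vehicle they gave Klf10 -0.012 to 0.07 and Klf7 -0.021 to 0.02.

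Over all genes, 104 were called in SE-BDEV over Vehicle, against 0 with no filter (2021 at an unadjusted p under 0.05), 48 with the block, 171 on 12 libraries and 5 to 315 leaving out a library. In CON-BDEV over Vehicle 321 were called, against 176 with no filter, 183 without the trend, 135 with the block, 133 on 12 libraries and 134 to 556 leaving out a library. With both groups 381 were called, against 225 with no filter and 124 to 510 leaving out a library. Klf9 gave no value with the filter at 5 FPKM, and the authors' Cuffdiff values used here do not cover SE-BDEV over CON-BDEV. Depth limits Klf2 and Klf13.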
